A study of Mus musculus with 16 samples.

Results

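The comparison described here set newborn mouse ovaries that had lost both Runx1 and Foxl2 (DKO, 4 ovaries) against ovaries that had lost Runx1 alone (Runx1 KO, 4 ovaries), and so addressed what the loss of Foxl2 added where Runx1 was already deleted. The members were chosen by GEO's sample labels alone and made up 8 of the 16 arrays of the series. The Runx1 KO ovaries were Runx1-/f, Foxl2+/+ and Sf1-cre+/Tg, and the DKO ovaries were Runx1-/f, Foxl2-/- and Sf1-Cre+/Tg, so both groups carried the Cre transgene, 1 null Runx1 allele and 1 floxed Runx1 allele. The other 8 arrays held Control ovaries (Runx1+/f, Foxl2+/+, without the transgene) and Foxl2 KO ovaries (Runx1+/f, Foxl2-/-, without the transgene), and were used to ask whether Foxl2 loss read differently with Runx1 intact. Each array was hybridised with amplified RNA of 1 ovary taken on postnatal day 0 and separated from the mesonephros. Sf1-cre recombines in the somatic cells of the gonad, so Runx1 was expected to remain in other cells, whereas the Foxl2 null allele was present in every cell. The colony had a mixed genetic background. The names Control, Foxl2 KO, Runx1 KO and DKO stand for the labels of the arrays throughout.

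FOXL2, a forkhead transcription factor, and RUNX1, a runt-domain transcription factor, are both made in pre-granulosa cells, which surround and support germ cells in the fetal ovary. Pre-granulosa cells and the Sertoli cells of the testis arise from a common precursor, and in the mouse FOXL2 is known to keep the genes of the Sertoli program low while it maintains those of granulosa cells. The labelled tissue was an ovary around birth, when oocytes become enclosed in primordial follicles by pre-granulosa cells. Signal from oocyte genes was present in all 8 arrays, with Gdf9, an oocyte growth factor, at 181 to 1726.

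The values were deposited linear intensities, already scaled by the authors to a common trimmed mean of 500 on each array, and 18193 genes were each read by 1 probe set. Array medians lay between 134 and 177 over the series. Differences are given on the scale of log2(intensity + 16) with the standard error (SE) of a linear model in which the 4 groups shared 1 estimate of the spread (n = 4 arrays in each group), and a gene was called when limma's p, adjusted over all genes by Benjamini-Hochberg, was under 0.05. The level that signal can reach without the transcript was taken from 3 Y-linked genes, Kdm5d, Uty and Eif2s3y, of which the highest had a mean log2 level of 5.34, an intensity of about 24.5. That level is a low estimate, since the Sry probe set read 232 to 514 in the same 8 ovaries. Where 1 group's mean lay below it, the difference is given as a lower bound counted from that level. Such a bound holds only for the level chosen, and a higher level would make it smaller. Runx1 KO replicate 4, DKO replicate 1 and Control replicate 4 correlated least with their groups (median r of 0.961, 0.968 and 0.962), and Control replicate 4 held high signal of erythroid genes.

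Foxl2 itself was lower in every DKO ovary. Its intensity was 3585, 3065, 2641 and 3412 in the Runx1 KO ovaries and 570, 736, 839 and 661 in the DKO ovaries, a fall of 4.46-fold (log2 difference -2.16 ± 0.20 SE, adjusted p = 4e-05). A second, dimmer probe set read 103 to 133 in Runx1 KO and 6 to 17 in DKO. The first probe set kept 484 to 890 in the Foxl2 KO ovaries as well, so signal remained at this probe set in both groups that carried Foxl2-/-.

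Runx1, deleted in both groups, read 1701, 1221, 932 and 2127 in Runx1 KO and 2370, 2111, 2227 and 2205 in DKO. The groups overlapped, since Runx1 KO replicate 4 lay above DKO replicate 2, and both the DKO ovaries and that replicate lay within or close to the Control range of 2142 to 2359. The difference of 0.64 ± 0.19 did not pass the test (adjusted p = 0.18), and all 6 Runx1 probe sets had the same sign. Where these probe sets lie relative to the deleted part is not given in the sources used here, so the signal is no check of the Runx1 labels. Ryr2, a calcium release channel of the endoplasmic reticulum, was named by the study from these same samples. It is therefore no independent check of the Runx1 labels, and the groups differ in the Cre transgene as well. It read 61 to 107 in Runx1 KO and 46 to 97 in DKO, against 414 to 918 in Control and 181 to 634 in Foxl2 KO, so both groups labelled as Runx1-deleted lay below both groups labelled as Runx1-intact.

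Foxl2 loss in the Runx1-deleted ovary was accompanied by 180 called genes of 18193 (0.989%), of which 77 were higher in DKO (0.423%) and 103 lower (0.566%). An unadjusted p under 0.05 was found for 1715 genes. The falls reached further than the rises, since the 5 largest falls were all larger than the largest rise (2.36, in a predicted gene). Of the called genes, 69 fell and 49 rose by at least 1 log2 unit. In 177 of the 180 called genes the 4 DKO values lay entirely beyond the 4 Runx1 KO values, which was so for 5.93% of all genes. The call rests on the same values, so this separation is no further evidence for the calls. The median difference over all genes was 0.02. The plot of difference against level shows called genes over the whole range of signal.

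**Figure D1:**
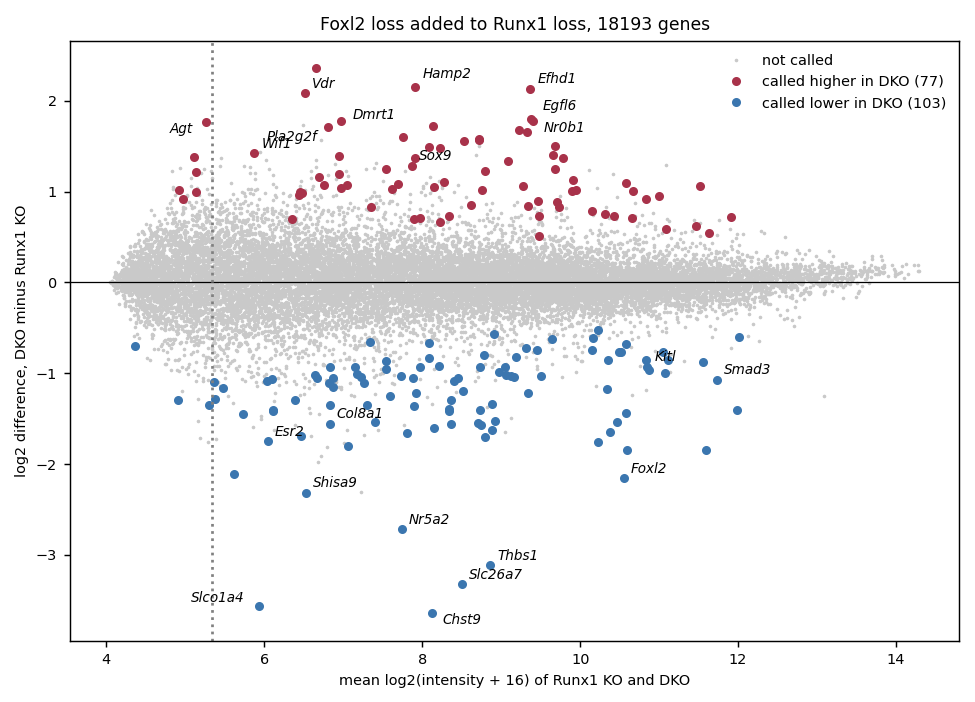
Difference between DKO and Runx1 KO (y axis, log2) against the mean level of the same 8 arrays (x axis, log2 of intensity + 16), 1 point for each of 18193 genes, with the 77 genes called higher in red, the 103 called lower in blue and the level of Y-linked genes as a dotted line. The largest falls, in Chst9, Slco1a4, Slc26a7, Thbs1 and Nr5a2, lie farther from 0 than any rise.

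Chst9 and Slco1a4 had the largest falls, and they cannot be ranked because Slco1a4 was below the level of Y-linked genes in DKO. Chst9 encodes a sulfotransferase that adds sulfate to N-acetylgalactosamine on glycoproteins. It read 1030, 946, 1273 and 712 in Runx1 KO and 48, 65, 85 and 59 in DKO, a fall of 12.5-fold (-3.64 ± 0.21, adjusted p = 1.6e-07). Slco1a4, an organic anion transporter, went from 166, 155, 197 and 279 to 2, 3, 1 and 1, below the level of Y-linked genes in every DKO ovary, and was at least 5.2-fold lower (adjusted p = 9.9e-08). Chst9, by contrast, stayed above that level in all 4 DKO ovaries.

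Slc26a7, an anion exchanger, read 1483, 1017, 759 and 1433 against 123, 81, 87 and 110, a 9.99-fold fall (-3.32 ± 0.22, adjusted p = 7.6e-07) that its second probe set matched at -3.35. Thbs1, encoding the matrix glycoprotein thrombospondin 1, read 1694, 1061, 1077 and 1705 against 110, 100, 175 and 205, an 8.67-fold fall (-3.12 ± 0.24, adjusted p = 4.9e-06). The group ranges of both genes were several fold apart. Shisa9, an auxiliary protein of AMPA-type glutamate receptors, read 147 to 232 in Runx1 KO and 9 to 42 in DKO (-2.31 ± 0.33, adjusted p = 0.002). Its probe set may cross-hybridise, and a specific probe set of the gene did not pass the test when shared probe sets were left out (adjusted p = 0.104).

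Among the other large falls, Zg16, a secretory granule lectin, went from 966, 556, 1004 and 699 to 249, 305, 190 and 196 (-1.70 ± 0.21, adjusted p = 0.0007). Pnliprp2, a pancreatic lipase-related protein, read 41 to 129 in Runx1 KO and 7 to 10 in DKO, and was at least 2.52-fold lower (adjusted p = 0.00015). Rrad, a small GTPase that restrains calcium channels, read 138, 125, 113 and 211 against 22, 57, 11 and 62 (-1.69 ± 0.36, adjusted p = 0.039), and was not called in 9 of the 16 fits made with 1 array removed, where adjusted p reached 0.122. Those 9 fits were without Control replicate 3, Foxl2 KO replicates 2 and 4, any Runx1 KO replicate, or DKO replicates 1 and 3. Without shared probe sets, Pnliprp2 and Zg16 were no longer called (adjusted p = 0.691 and 0.0876). Speer4b, Speer4cos and Speer8-ps1, of a testis-expressed multigene family, were also called lower (-1.84, -1.84 and -1.75, adjusted p between 0.0042 and 0.0086). The copies of that family are near-identical, so which of them gave the signal is uncertain.

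Of the 15 largest rises 2 were predicted genes, and the other 13 covered several kinds of product. Efhd1, a calcium-binding protein of mitochondria, read 264, 259, 375 and 314 in Runx1 KO and 1099, 1162, 1632 and 1676 in DKO, a rise of 4.38-fold (2.13 ± 0.21, adjusted p = 6.1e-05). Egfl6, a secreted matrix protein, read 472, 221, 314 and 413 against 1251, 1166, 1040 and 1506 (1.80 ± 0.25, adjusted p = 0.0016). Prkg2, a cyclic GMP-dependent protein kinase, read 323 to 361 against 912 to 1550 (1.65 ± 0.20, adjusted p = 0.00055), and its 3 probe sets all rose by at least 1.25 log2 units. These 3 genes were bright in both groups, with no overlap.

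Cd83, a membrane protein of the immunoglobulin family best known from immune cells, read 165, 120, 101 and 185 against 538, 387, 555 and 522 (1.72 ± 0.25, adjusted p = 0.0021). Mmd2, a multipass membrane protein, read 167 to 288 against 579 to 848 (1.58 ± 0.23, adjusted p = 0.002), but 0.0625 without shared probe sets. Rmst, a long non-coding RNA, read 607, 193, 184 and 469 against 819, 1128, 1092 and 1227 (1.68 ± 0.30, adjusted p = 0.011), with the Runx1 KO ovaries more than 3-fold apart among themselves. A second Rmst probe set differed by 0.60, and the mean of its probe sets was not called (adjusted p = 0.119). Agt, the angiotensinogen precursor, was at 4 to 7 in all Runx1 KO ovaries and at 148, 75, 34 and 18 in DKO, at least 1.75-fold higher (adjusted p = 0.023). The 4 DKO ovaries therefore differed widely in Agt, and 1 of them lay below the level of Y-linked genes. Agt lost its call without Runx1 KO replicate 1, 2 or 3 or DKO replicate 2 (adjusted p up to 0.0778).

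Hamp2, a hepcidin-related peptide gene, had the largest rise of any named gene, from 170, 33, 142 and 102 to 585, 431, 599 and 382 (2.15 ± 0.38, adjusted p = 0.011). That probe set may also read the near-identical hepcidin gene, and the specific probe set of Hamp2 stayed at 3 to 17 in Runx1 KO and 3 to 7 in DKO, a difference of -0.19, so which copy rose is uncertain.

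Promoter sequence was set beside 4 of the called genes, chosen because a searched motif lay in the window of a gene that fell (Slco1a4, Esr2) or rose (Wif1, Nr0b1). The windows are from RefSeq on GRCm38.p6 and run from 250 bases before to 50 bases after the annotated start, read 5′ to 3′ on the strand of the gene. Of 70 called genes under the naming rule, predicted ones included, 53 had a window once those on a single chromosome were left out. The motifs searched, on both strands, were TAAACA for forkhead factors, TGTGGT for RUNX factors and CAAGGTCA for NR5A receptors, and the capitals below mark each match. The window of Slco1a4 lies at chr6:141856171-141856470 on the minus strand, that of Esr2 at chr12:76177210-76177509 on the minus strand, that of Wif1 at chr10:121033754-121034053 on the plus strand and that of Nr0b1 at chrX:86191525-86191824 on the plus strand.
Slco1a4: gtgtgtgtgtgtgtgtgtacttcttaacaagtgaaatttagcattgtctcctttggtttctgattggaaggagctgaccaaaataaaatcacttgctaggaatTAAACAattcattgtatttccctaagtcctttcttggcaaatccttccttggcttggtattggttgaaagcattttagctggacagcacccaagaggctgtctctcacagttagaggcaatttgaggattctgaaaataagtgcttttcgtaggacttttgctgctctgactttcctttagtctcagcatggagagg
Esr2: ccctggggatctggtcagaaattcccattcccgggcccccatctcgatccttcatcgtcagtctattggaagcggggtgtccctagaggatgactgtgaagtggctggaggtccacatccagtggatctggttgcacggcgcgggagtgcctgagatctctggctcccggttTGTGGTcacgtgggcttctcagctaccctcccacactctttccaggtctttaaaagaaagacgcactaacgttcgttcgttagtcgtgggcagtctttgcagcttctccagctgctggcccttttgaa
Wif1: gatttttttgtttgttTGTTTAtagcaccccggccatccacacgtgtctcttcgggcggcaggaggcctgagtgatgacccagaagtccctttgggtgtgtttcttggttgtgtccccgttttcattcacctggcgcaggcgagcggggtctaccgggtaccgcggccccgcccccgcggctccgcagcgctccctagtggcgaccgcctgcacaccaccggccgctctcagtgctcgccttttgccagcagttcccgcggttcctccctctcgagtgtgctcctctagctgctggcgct
Nr0b1: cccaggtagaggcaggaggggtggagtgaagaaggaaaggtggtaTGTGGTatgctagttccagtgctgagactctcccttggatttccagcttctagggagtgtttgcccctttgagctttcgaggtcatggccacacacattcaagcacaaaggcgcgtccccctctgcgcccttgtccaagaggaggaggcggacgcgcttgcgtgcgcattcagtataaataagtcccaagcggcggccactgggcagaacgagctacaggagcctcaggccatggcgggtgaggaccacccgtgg

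The forkhead match began 147 bases before the start in Slco1a4 and, on the opposite strand, 234 bases before it in Wif1. The RUNX match began 78 bases before the start in Esr2 and 205 bases before it in Nr0b1. Among the windows of all genes tested, 10.4% held the forkhead letters, against 10.9% of the 92 windows of genes called lower and 6.94% of the 72 windows of genes called higher. The RUNX letters were in 13.7% of windows of all genes tested, 6.52% of those called lower and 20.8% of those called higher, and the NR5A letters in 1.31%, 1.09% and 4.17%. No test was made of these shares, and a match is a description of letters and not a binding site.

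Pre-granulosa and granulosa markers formed the first gene list, and 5 of its 24 measured members fell while none rose. All genes tested were called lower in 0.566% of cases. The median difference of the list was -0.29. Besides Foxl2, the members that fell were Nr5a2, Esr2, Kitl and Pla2r1. The list was drawn up with earlier results of these data known and is not independent evidence of its direction. In bulk RNA of a whole ovary, fewer cells of a type and less RNA per cell cannot be told apart.

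Nr5a2, an orphan nuclear receptor that granulosa cells need for ovulation, read 832, 340, 755 and 371 in Runx1 KO and 91, 61, 56 and 66 in DKO, a fall of 6.57-fold (-2.71 ± 0.25, adjusted p = 4e-05). Its 4 probe sets all fell by at least 1.82 log2 units. The Runx1 KO ovaries formed a higher and a lower pair, and the DKO ovaries lay far below both.

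Esr2, the estrogen receptor of granulosa cells, read 125, 99, 109 and 90 against 12, 45, 21 and 10, and was at least 2.99-fold lower (adjusted p = 0.0045). Kitl, the KIT ligand that pre-granulosa cells present to oocytes, read 2816, 2195, 1994 and 3293 against 1242, 1195, 1565 and 1300, a fall of 1.90-fold (-0.93 ± 0.20, adjusted p = 0.034). It remained a strong signal in DKO and all 4 of its probe sets had the same sign, but it lost its call without Runx1 KO replicate 1, 2 or 4 or DKO replicate 1, 2 or 4 (adjusted p up to 0.102). Pla2r1, a phospholipase A2 receptor, read 221, 170, 171 and 450 against 57, 74, 36 and 60 (-1.79 ± 0.40, adjusted p = 0.044). Its call was lost whenever any 1 Control, Runx1 KO or DKO array was left out (adjusted p up to 0.137), and its second probe set read no more than 18 in any array.

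Fst, encoding the activin antagonist follistatin, read 707, 1309, 975 and 790 in Runx1 KO and 259, 366, 382 and 278 in DKO. The groups did not overlap, but the difference of -1.49 ± 0.34 did not pass the test (adjusted p = 0.052), and it passed under 8 of the 15 other settings tried. Foxp1, a forkhead factor, differed by -0.31 ± 0.11 (adjusted p = 0.33) at its brightest probe set. All 8 of its probe sets were lower in DKO, by 0.02 to 0.72. The one that fell most read 631 to 786 in Runx1 KO and 313 to 547 in DKO. Wnt4, a WNT ligand needed for early ovary development, had the opposite sign, at 489, 397, 449 and 701 against 998, 894, 1110 and 785 (0.90 ± 0.21, adjusted p = 0.064). The list thus held members of both signs, 10 positive and 14 negative.

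**Figure D2:**
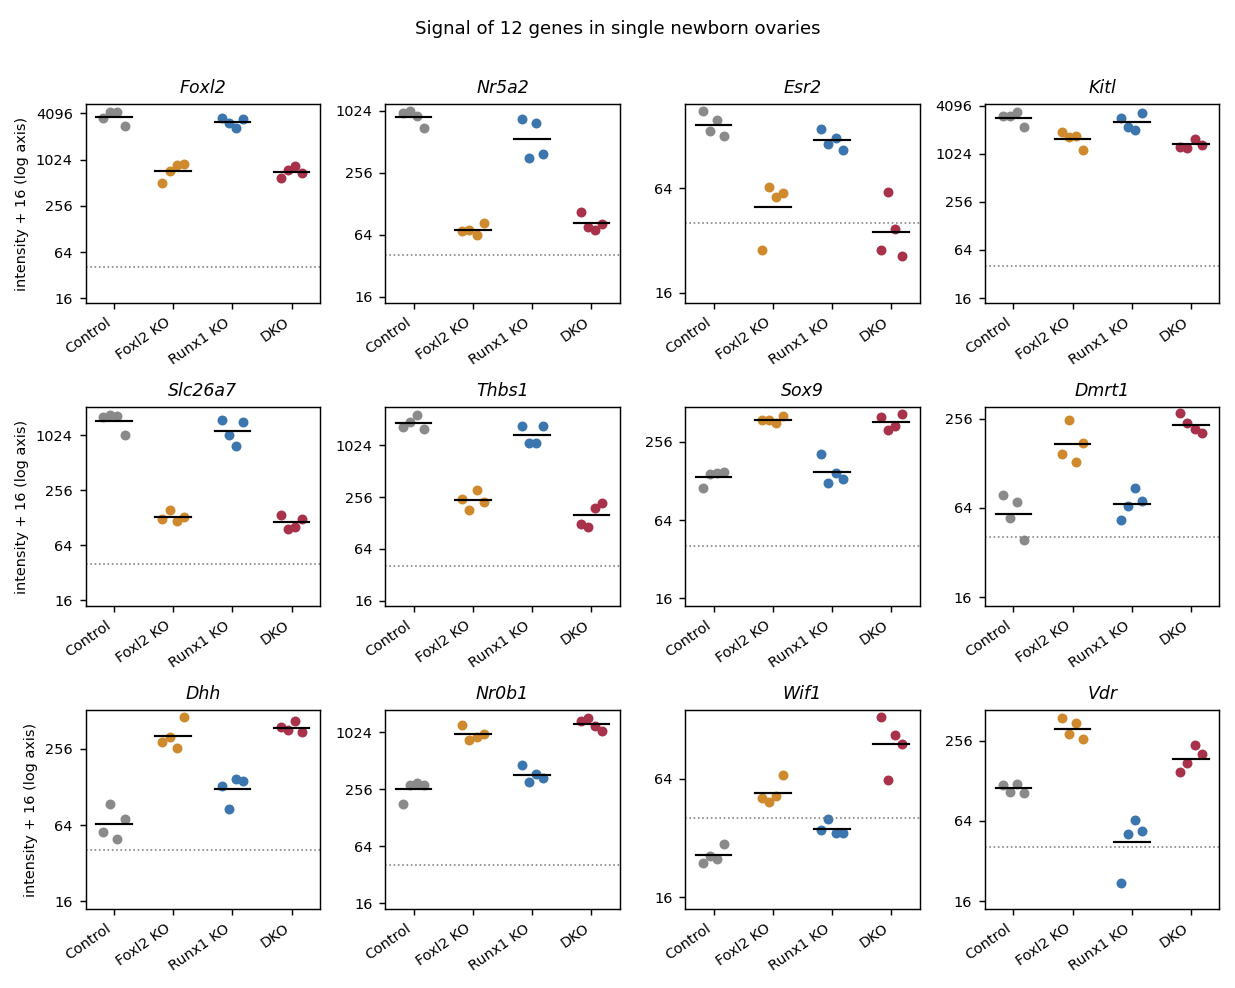
Signal of 12 genes in single ovaries (points, y axis intensity + 16 on a log axis) by group (x axis), with the mean of the log2 values as a bar and the level of Y-linked genes as a dotted line. In the top row and in Slc26a7 and Thbs1 all DKO ovaries lie below all Runx1 KO ovaries, and in the last 6 genes all lie above them.

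Sertoli cell markers were called in the other direction, with 5 of 24 measured members higher and none lower, where 0.423% of all genes were called higher. The median of the list was 0.205, with 16 members positive and 8 negative, the lowest at -0.80. The members that rose were Sox9, Dmrt1, Dhh, Nr0b1 and Cst9. Sox9, Dmrt1 and Dhh also belonged to 15 measured genes that the study had picked on these arrays, of which 3 rose and 2 fell (Foxl2 and Pla2r1), so neither count is independent evidence.

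Sox9, the transcription factor that starts Sertoli cell differentiation, read 191, 108, 131 and 116 in Runx1 KO and 381, 299, 321 and 405 in DKO, a rise of 2.44-fold (1.29 ± 0.16, adjusted p = 0.00069). A second probe set differed by 1.04, and the dimmest read no more than 24 in any array. Dmrt1, a transcription factor that maintains male fate in the testis, read 37, 50, 71 and 55 against 262, 224, 201 and 188 (1.78 ± 0.24, adjusted p = 0.0011). The lowest DKO ovary was above the highest Runx1 KO ovary by more than 2-fold for Dmrt1.

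Dhh, the hedgehog ligand of Sertoli cells, read 115, 69, 131 and 126 against 366, 342, 404 and 331 (1.61 ± 0.22, adjusted p = 0.0017), while a dimmer second probe set differed by -0.33 and the mean of both was not called (adjusted p = 0.0916). Nr0b1, encoding the orphan nuclear receptor DAX1, read 449, 290, 359 and 320 against 1344, 1448, 1171 and 1041 (1.78 ± 0.19, adjusted p = 0.00015). Cst9, a cystatin known from Sertoli cells, read 171, 143, 170 and 168 against 513, 611, 431 and 403 (1.48 ± 0.24, adjusted p = 0.0053). All 5 rises were larger than the spread between ovaries of either group.

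Other Sertoli and testis genes were not called. Amh, the anti-Müllerian hormone that Sertoli cells secrete, read 45, 18, 15 and 12 in Runx1 KO and 18, 33, 11 and 27 in DKO, near or below the level of Y-linked genes in both groups. Fgf9, a growth factor of the male pathway, read 384 to 448 against 374 to 446 (0.04 ± 0.17, adjusted p = 0.98), with a 95% interval of -0.33 to 0.41. Inhbb, the inhibin beta-B subunit, read 1036, 824, 913 and 1308 against 1753, 1997, 2748 and 1466 without overlap, but missed the threshold (0.94 ± 0.22, adjusted p = 0.054). Among 28 SOX, DMRT and gonadal transcription factors only Sox9 and Dmrt1 were called, where 0.423% of all genes were called higher. Gata4, a shared factor of both sexes, differed by 0.39 ± 0.15 (adjusted p = 0.41).

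Orphan and steroid nuclear receptors moved in both directions, with 2 of 21 higher (Nr0b1, Vdr) and 2 lower (Nr5a2, Esr2). Of all genes, 0.423% were called higher and 0.566% lower. Vdr, the vitamin D receptor, read 6, 35, 49 and 38 in Runx1 KO and 134, 159, 220 and 186 in DKO, a rise of 4.23-fold (2.08 ± 0.26, adjusted p = 0.0007), with Runx1 KO close to the level of Y-linked genes. Nr5a1, encoding SF1, whose regulatory sequence drives the Cre transgene, read 1324, 858, 1019 and 1204 against 1824, 1557, 1737 and 1396 (0.57 ± 0.15, adjusted p = 0.1). Its paralogue Nr5a2 therefore fell while Nr5a1 was not lower in any DKO ovary than in any Runx1 KO ovary.

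Of 15 measured genes of steroid synthesis and breakdown, 1 was called, where 0.989% of all genes were called. Akr1c14, a hydroxysteroid dehydrogenase, read 2710, 3273, 3338 and 2589 against 1347, 1876, 1671 and 1663 (-0.86 ± 0.16, adjusted p = 0.013), and 0.0517 without Runx1 KO replicate 3. Hsd17b1, which makes estradiol in granulosa cells, read 128, 78, 158 and 80 against 25, 63, 15 and 9, without overlap, and did not pass the test (adjusted p = 0.064). Scarb1, the lipoprotein receptor that supplies cholesterol, differed by 0.56 ± 0.14 (adjusted p = 0.08).

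WNT and R-spondin signalling held 3 called genes among 35, all higher, where 0.423% of all genes were called higher. Wif1, a secreted WNT inhibitor, was at 18 to 24 in all Runx1 KO ovaries, below the level of Y-linked genes, and at 115, 47, 91 and 80 in DKO, at least 2.37-fold higher (adjusted p = 0.001). Lef1, a transcription factor at the end of the pathway, read 467, 493, 497 and 554 against 954, 1104, 829 and 927 (0.90 ± 0.15, adjusted p = 0.0064), but the mean of its 2 probe sets was not called (0.71, adjusted p = 0.116). Rnf43, a ligase that removes WNT receptors, read 84, 104, 92 and 157 against 191, 169, 214 and 239 (0.83 ± 0.19, adjusted p = 0.046), and kept its call only in the fits without Control replicate 3 or 4, Foxl2 KO replicate 3 or 4, or Runx1 KO replicate 4, of 16 fits that each removed 1 array (the largest adjusted p was 0.148), and lost it with the oocyte score as a covariate (0.143). The 3 genes thus include inhibitors of the pathway (Wif1, Rnf43) and a factor through which it acts (Lef1).

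Of 39 genes of activin, BMP and TGF-beta signalling only Smad3, a transducer of activin and TGF-beta, was called (0.566% of all genes were called lower). It read 5889, 5501, 4105 and 4410 in Runx1 KO and 2206, 2464, 2475 and 2206 in DKO, a fall of 2.10-fold (-1.07 ± 0.16, adjusted p = 0.0023), and its 3 probe sets fell by at least 0.80. The list held Fst and Inhbb as the members with the next smallest p, and its median was close to 0, with 18 members positive and 21 negative. In hedgehog signalling 1 of 14 was called, the ligand Dhh, where 0.423% of all genes were called higher. The target gene Gli1 read 71, 12, 29 and 83 against 102, 90, 85 and 107 (0.97 ± 0.33, adjusted p = 0.27) and Boc, a co-receptor, differed by 0.49 ± 0.21 (adjusted p = 0.46).

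Genes of prostaglandin and phospholipase A2 metabolism held 7 called members of 21, 5 lower and 2 higher, where 0.989% of all genes were called, with a list median of -0.27 that was -0.01 without DKO replicate 1. With the oocyte score of each array as a covariate 4 of the 7, Ptges, Pla2g4a, Pla2g2f and Pla2r1, were not called. Phospholipases A2 release the fatty acid from which prostaglandins are made, and prostaglandins then act through G protein-coupled receptors. On the receptor side, Ptger3 (EP3) read 860, 1069, 926 and 524 in Runx1 KO and 291, 270, 173 and 302 in DKO (-1.63 ± 0.22, adjusted p = 0.0013), though without shared probe sets a second probe set was not called (-1.23, adjusted p = 0.203). Ptger2 (EP2) read 46, 36, 39 and 71 against 6, 2, 7 and 23, with every DKO ovary below the level of Y-linked genes, and was at least 1.55-fold lower (adjusted p = 0.011).

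On the synthesis side, Ptges, the prostaglandin E synthase, read 613, 554, 766 and 321 against 251, 203, 271 and 189 (-1.20 ± 0.25, adjusted p = 0.032), and its 3 probe sets all fell. Pla2g4a, the cytosolic phospholipase A2, read 1378, 1305, 1624 and 1297 against 911, 946, 940 and 842 (-0.61 ± 0.12, adjusted p = 0.028). Ptges and Pla2g4a both lost their calls without Runx1 KO replicate 1, 2 or 3 or any DKO replicate (adjusted p up to 0.109 and 0.104). The members that rose were both secreted phospholipases: Pla2g2f read 45, 27, 52 and 64 against 266, 125, 276 and 128 (1.72 ± 0.33, adjusted p = 0.018), and Pla2g5 read 175, 171, 192 and 246 against 480, 426, 548 and 324 (1.11 ± 0.20, adjusted p = 0.013). Pla2r1, the receptor that binds secreted phospholipases, was the other member that fell. Pla2g2f lost its call without Runx1 KO replicate 1 or 2 or DKO replicate 1 or 3 (adjusted p up to 0.0674), and Pla2g5 without Runx1 KO replicate 1 or DKO replicate 3 (up to 0.0556).

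Collagens and basement membrane genes had a list median of 0.05 and 3 called members of 45, all lower, where 0.566% of all genes were called lower. Besides Thbs1 they were Col8a1, a short-chain collagen, at 360, 98, 147 and 190 against 68, 59, 32 and 47 (-1.56 ± 0.29, adjusted p = 0.017), and Lama1, the laminin alpha-1 chain, at 908, 718, 792 and 791 against 519, 373, 545 and 494 (-0.72 ± 0.15, adjusted p = 0.031). Col8a1 kept the sign of its fall in its 2 other probe sets (-0.59 and -0.80), but the mean of the 3 was not called (adjusted p = 0.0815), nor was the gene without DKO replicate 3 or 4 (up to 0.0638). Lama1 lost its call without Runx1 KO replicate 1, 3 or 4 or DKO replicate 1, 2 or 4 (up to 0.1).

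Among 29 cell cycle genes and inhibitors only Cdkn1a, encoding the inhibitor p21, was called, where 0.423% of all genes were called higher. Cdkn1a read 470, 671, 355 and 480 in Runx1 KO and 1537, 871, 1626 and 1292 in DKO (1.40 ± 0.22, adjusted p = 0.0044), and its second probe set rose by 2.28. Cdkn1b, encoding p27, read 4827, 4291, 5234 and 5374 against 2777, 3536, 2113 and 3820, without overlap, at -0.72 ± 0.19 (adjusted p = 0.11), and Cdkn1c, encoding p57, differed by 0.65 ± 0.23 (adjusted p = 0.3). The 3 inhibitors of this family thus did not share a sign.

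Among 21 forkhead factors only Foxl2 itself was called, where 0.566% of all genes were called lower. No member was called in the remaining pathway lists. The smallest adjusted p was 0.46 among 19 Notch genes, where Heyl, Hey2 and Adam10 differed by 0.50, -0.74 and 0.36, and 0.18 among 33 genes of FGF, PDGF and IGF signalling, where Etv5 differed by 0.57 ± 0.17, Pdgfd by -0.90 ± 0.38 and Pdgfc by 0.68 ± 0.26. Among 16 retinoic acid genes, Stra6, the retinol transporter, read 194, 53, 54 and 117 against 298, 184, 285 and 219 (1.26 ± 0.30, adjusted p = 0.069), and Aldh1a3 and Dhrs3 differed by 0.71 and 0.44. Among 25 junction genes, Gja1, the main connexin of granulosa cells, differed by -0.48 ± 0.14 (adjusted p = 0.16), Tjp1 by -0.34 and Ocln by 0.48. Among 23 genes of calcium release and exchange, Cacna1c, Atp2b1 and Camk2b differed by 0.77, 0.24 and -0.46, and Ryr2 by -0.28 ± 0.34 (adjusted p = 0.89). Itpr2, an IP3 receptor that the study named, differed by 0.10 (adjusted p = 0.94). Among 16 early response and stress genes, Hspa1a, Hspa1b and Egr1 differed by -0.89, -0.44 and -0.44, the first with an adjusted p of 0.055.

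**Figure D3:**
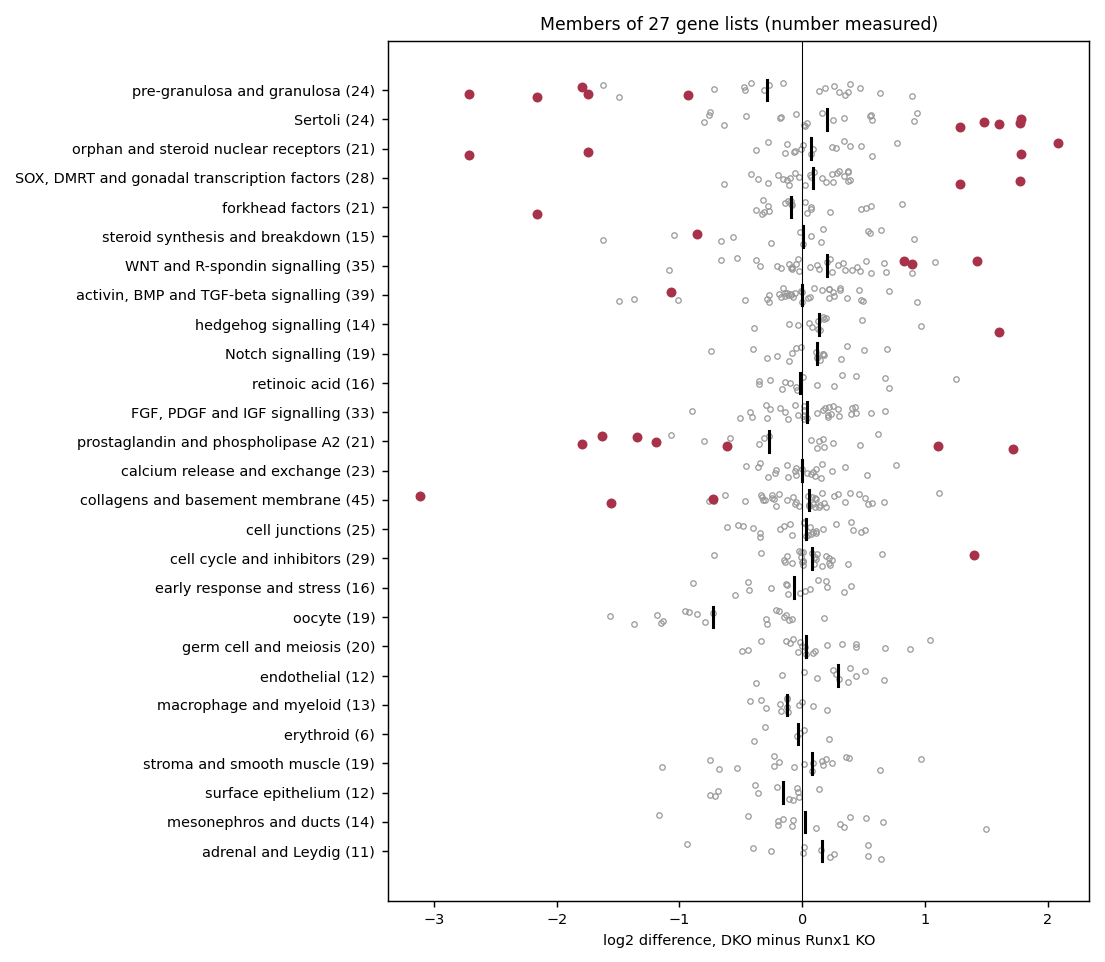
Difference between DKO and Runx1 KO (x axis, log2) of each measured member of 27 gene lists (rows, number measured in brackets), with called members filled, the others open and the median of each list as a bar. Called members lie to the left in the pre-granulosa list and to the right in the Sertoli list, and the oocyte list, with no called member, has the median farthest from 0, at -0.73.

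Markers of other cell types were not called in any list, but oocyte markers leaned one way. Of 19 oocyte genes 18 were lower in DKO, with a list median of -0.73. The list median of Foxl2 KO minus Control had the opposite sign, at 0.358. There the mean deviation of the list was 0.31, 0.14, -0.57 and -0.80 in Control and 0.40, -0.26, -0.66 and 0.86 in Foxl2 KO. The mean deviation of the list was 0.34, 0.67, 1.14 and -0.61 in the 4 Runx1 KO ovaries and -0.57, -0.07, -0.13 and -0.20 in the 4 DKO ovaries, so 3 Runx1 KO ovaries lay above all DKO ovaries and replicate 4 lay below them. Gdf9 read 668, 688, 1726 and 317 against 181, 325, 316 and 264 (-1.37 ± 0.52, adjusted p = 0.36), Oosp1, an oocyte-secreted protein, 118, 91, 326 and 72 against 57, 5, 35 and 53 (-1.57 ± 0.49, adjusted p = 0.2), and Zp1, of the egg coat, 276, 713, 1111 and 131 against 150, 168, 177 and 231 (-1.15 ± 0.67, adjusted p = 0.67). With the oocyte score of each array as a covariate, 129 genes were called, 115 of which were among the 180. Foxl2, Nr5a2, Esr2, Sox9, Dmrt1, Dhh, Nr0b1 and Cst9 stayed called with that covariate. Among the called list members and largest changes named here, Pla2r1 (adjusted p = 0.0603), Ptges (0.112), Pla2g4a (0.055), Pla2g2f (0.0713), Rnf43 (0.143), Lama1 (0.0878) and Agt (0.0796) lost their calls with it, as did Nudt16 (0.143), Sgca (0.069) and Vsig10l (0.142). Hs3st1 (0.13), Chst8 (0.128), Sema3c (0.146) and Celsr2 (0.119), described further below, lost theirs with it too.

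The list of germ cell and meiosis genes (20 measured) had a median of 0.03, with Stra8, Taf7l and Tex14 at 0.68, 1.04 and -0.45. Endothelial genes (12) had a median of 0.29, with 10 positive, led by Kdr, the VEGF receptor, at 658, 418, 575 and 627 against 767, 844, 986 and 1036 (0.67 ± 0.18, adjusted p = 0.11), then Cldn5 and Tie1. Macrophage and myeloid genes (13) had a median of -0.125, with 11 negative, and Fcer1g, Mrc1 and Adgre1 at -0.43, -0.34 and 0.20. The surface epithelium list (12) had a median of -0.155, with 11 negative, led by Krt18 (-0.75 ± 0.20, adjusted p = 0.1), Krt8 and Msln. The stroma and smooth muscle list (19) had a median of 0.08, with Myh11 at 0.63 ± 0.22 (adjusted p = 0.31), and the erythroid list (6) one of -0.03. In the adrenal and Leydig list (11), with a median of 0.16, Chga and Pnmt differed by -0.94 and 0.54.

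Among 14 measured markers of the mesonephros and its ducts, with a median of 0.02, Pax8 read 453, 171, 144 and 271 in Runx1 KO and 655, 622, 869 and 658 in DKO, without overlap, and missed the threshold (1.5 ± 0.35, adjusted p = 0.057). Calb1 differed by -1.16 ± 0.33 (adjusted p = 0.13) and Emx2 by 0.34 ± 0.13 (adjusted p = 0.41). The list's mean deviation was 0.00 to 0.20 in Runx1 KO and -0.02 to 0.52 in DKO. The part of these cell types in the called differences was not tested, apart from the fit with the oocyte score.

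The same Foxl2 genotype contrast on 8 other arrays, Foxl2 KO against Control with Runx1 intact, gave 276 called genes (1.52%). The group means compared share no array. Both comparisons used 1 estimate of the spread from all 16 arrays, so the lists of calls are not fully independent. Of the genes called, 99 were called in both, which is 55.0% of the DKO list and 35.9% of the Foxl2 KO list, and all 99 had the same sign (39 higher, 60 lower). Of the 81 genes called only in the Runx1-deleted ovary, 79 had the same sign in the other contrast. The exceptions, named after their values were seen, were Sgca, a sarcoglycan, and Vsig10l, an immunoglobulin-domain protein. Sgca read 26, 41, 75 and 73 in Runx1 KO and 19, 17, 9 and 11 in DKO, at least 1.64-fold lower (adjusted p = 0.021), but 7 to 18 in Control and 9 to 20 in Foxl2 KO, all below the level of Y-linked genes, so its sign there has no meaning. Vsig10l differed by 0.70 with Runx1 deleted (adjusted p = 0.042) and by -0.20 with Runx1 intact (adjusted p = 0.72). Sgca lost its call without Runx1 KO or DKO replicate 3 or 4 (adjusted p up to 0.0736), and Vsig10l in 10 of the 16 fits (up to 0.143). Over all 18193 genes the sign was the same in 56.0%. The correlation of the differences across all genes was 0.322 (Pearson, genes not being independent replicates).

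**Figure D4:**
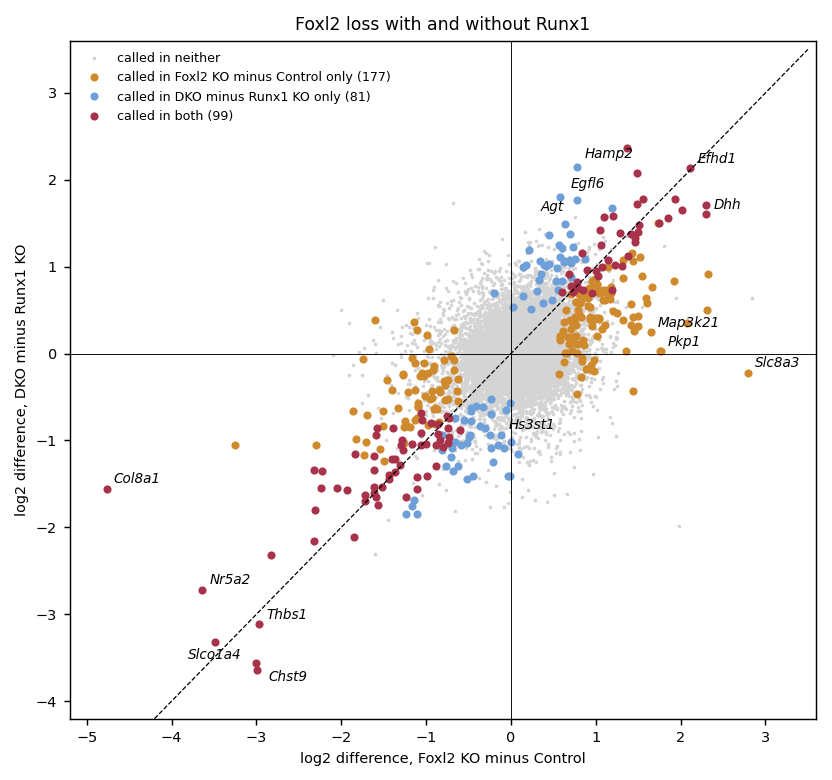
Difference of DKO minus Runx1 KO (y axis, log2) against Foxl2 KO minus Control (x axis, log2) for 18193 genes, with genes called in both (99), in 1 of the comparisons (81 and 177) or in neither, and the line of equal difference dashed. Genes called in both lie on the same side of 0 on both axes, and Col8a1 and Slc8a3 lie farthest from the line among the genes named.

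The genes with the largest differences in the Runx1-deleted ovary were also far from 0 with Runx1 intact. Chst9, Slc26a7, Thbs1 and Nr5a2 differed by -2.99, -3.49, -2.97 and -3.64 there, Slco1a4 was at least 3.5-fold lower, and Sox9, Dmrt1, Dhh, Nr0b1 and Cst9 by 1.46, 1.56, 2.30, 1.93 and 1.51, all called. Egfl6, Hamp2 and Pla2g5, picked out after their values were seen together with Agt, differed by 0.58, 0.78 and 0.58 there and were not called. Agt was not called either, and the means of both groups lay below the level of Y-linked genes there. A call in 1 comparison and not in the other does not show that they differ, and the test of the difference itself called none of these 4 (adjusted p between 0.76 and 0.92).

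The test of whether Foxl2 loss read differently with Runx1 deleted than with Runx1 intact called 2 genes (0.011%), by limma at an adjusted p under 0.05, with 970 at an unadjusted p under 0.05. The Runx1-deleted groups carried the Cre transgene and the Runx1-intact groups did not, so Runx1 loss and the transgene cannot be told apart here. Col8a1 read 1374, 2318, 1907 and 2282 in Control and 62, 66, 51 and 45 in Foxl2 KO, a difference of -4.76, against -1.56 between Runx1 KO and DKO. The difference between the effects was 3.21 ± 0.42 (adjusted p = 0.021). Levels in Foxl2 KO and DKO overlapped near the bottom of the range, and the Runx1 KO ovaries lay between them and Control.

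Slc8a3, a sodium/calcium exchanger, was high in a single group, at 542, 341, 629 and 481 in Foxl2 KO, against 50, 73, 56 and 51 in Control, 65, 125, 31 and 110 in Runx1 KO and 78, 39, 72 and 64 in DKO. Its difference was 2.79 with Runx1 intact and -0.22 with Runx1 deleted, and the difference between them was -3.01 ± 0.42 (adjusted p = 0.023). Leaving out 1 array at a time ended the call of Col8a1 in 7 of 16 fits and that of Slc8a3 in 10 of 16, with adjusted p no higher than 0.0831 and 0.0923. The arrays were Control replicate 4, Foxl2 KO replicates 1, 3 and 4, Runx1 KO replicate 4 and DKO replicates 2 and 4 for Col8a1, and for Slc8a3 the same with Control replicate 1, Runx1 KO replicate 1 and DKO replicate 3.

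The next genes by p were not called. Map3k21, a kinase, read 28 to 47 in Control and 134 to 169 in Foxl2 KO but 76 to 124 in Runx1 KO and 98 to 151 in DKO (adjusted p = 0.14). Pkp1, a desmosome protein, read 7 to 31 and 77 to 111 in the first pair and 28 to 35 and 22 to 54 in the second (adjusted p = 0.15). Kcnf1, a potassium channel subunit, read 40 to 84 in Control, 5 to 13 in Foxl2 KO, 19 to 41 in Runx1 KO and 25 to 79 in DKO (adjusted p = 0.16). Clec12b, a lectin-like receptor, read 15 to 56 in Control and 11 to 53 in DKO but 3 to 7 in the other groups, and Rab17, a small GTPase, read at most 17 in Control and DKO and 20 to 42 in the other groups, so both lay around the level of Y-linked genes (adjusted p = 0.16 and 0.19).

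**Figure D5:**
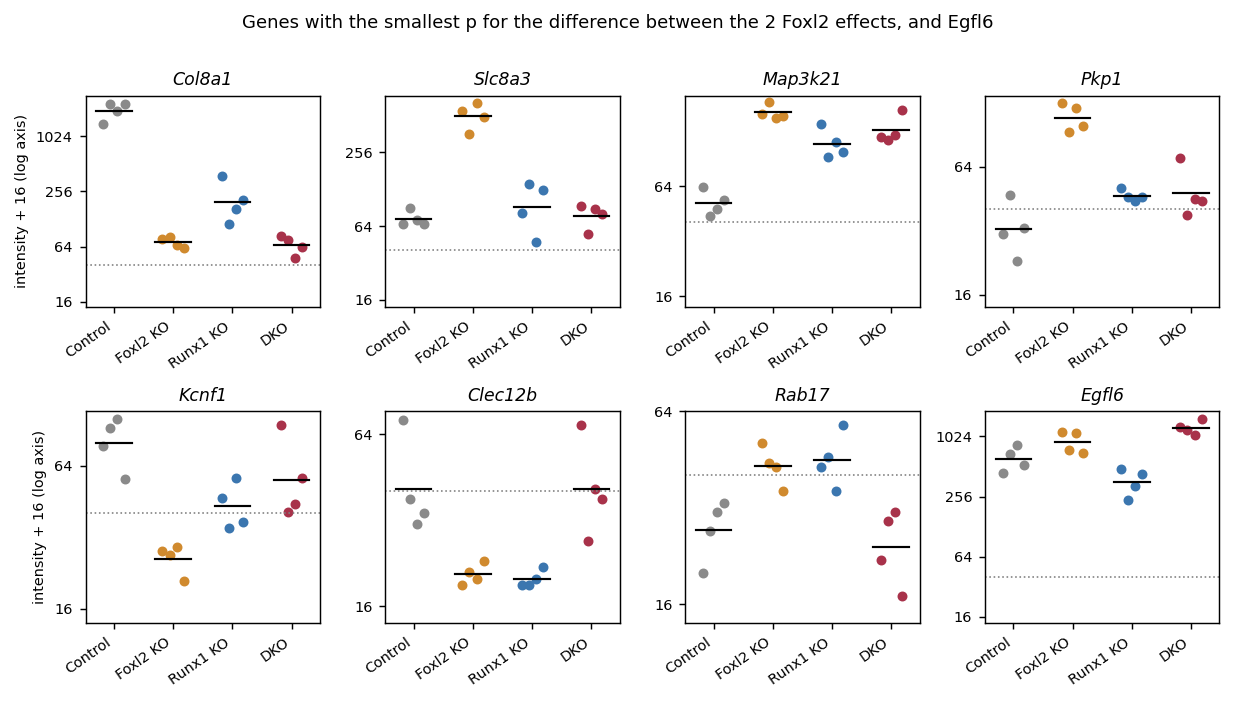
Signal in single ovaries (points, y axis intensity + 16 on a log axis) by group (x axis), with the mean of the log2 values as a bar and the level of Y-linked genes as a dotted line, for the 7 named genes with the smallest p for the difference between the effects and for Egfl6. Col8a1 is high in Control alone and Slc8a3 in Foxl2 KO alone.

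Genes near Foxl2 on chromosome 9 were examined because the Foxl2 null allele may bring a linked stretch of the 129 strain. Such a stretch could differ between the groups together with Foxl2. The strain of this region in each ovary was not given in the sources used here. Among the 50 tested genes on each side of Foxl2 in RefSeq order, 4 of 100 were called (4.0%), all lower: Nmnat3, Clstn2, Dipk2a and Nudt16, at 7, 9, 34 and 41 genes from Foxl2. Over the whole chromosome 16 of 1005 were called (1.59%). Clstn2, a calsyntenin, read 750, 710, 734 and 752 against 235, 283, 287 and 326 (-1.34 ± 0.16, adjusted p = 0.00045). Nmnat3, of NAD synthesis, read 513, 602, 548 and 405 against 230, 163, 206 and 141 (-1.42 ± 0.26, adjusted p = 0.012). Dipk2a and Nudt16 fell by 0.85 and 0.93 (not called in 6 and 14 of the 16 fits with 1 array removed, where adjusted p reached 0.119 and 0.136), and Tpbg, an inhibitor of WNT signalling 72 genes away, by 0.97. The fall of Tpbg was read by a shared probe set, and without such probe sets the difference was -0.45 (adjusted p = 0.518). For these genes Foxl2 loss and any strain difference in the linked region cannot be told apart.

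The genes whose values followed those of Foxl2 most closely over the 16 arrays were Slc26a7 (Pearson r = 0.976), Chst9 (0.973), Thbs1 (0.967), Ephx2 (0.965) and Slco1a4 (0.96). All 5 were among the genes called lower in DKO. Ephx2, a soluble epoxide hydrolase, read 885, 697, 714 and 530 in Runx1 KO and 226, 219, 219 and 249 in DKO (-1.54 ± 0.15, adjusted p = 7.5e-05). These correlations describe arrays that fall into a high and a low group for Foxl2, and are given with no test.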

How the data were processed

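RNA of single ovaries taken at postnatal day 0 was amplified and hybridised to Affymetrix Mouse Genome 430 2.0 arrays, 4 for each of 4 genotypes. The authors deposited linear intensities, scaled on every array to a mean of 500 with 2% trimmed, from Expression Console 1.2 per the labels; the summarisation algorithm is not given in the sources used here. The study's own tests were made on RMA values by one-way analysis of variance.

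From these values log2(intensity + 16) was taken, and of the 34945 probe sets with 1 gene name the one with the highest mean over the 16 arrays stood for each of 18193 genes. Four-group linear models with moderated variances were fitted in limma 3.58.1 under R 4.3.3, with Benjamini-Hochberg adjustment over all genes, and the script was tested on simulated data. Arrays are the replicates, and whether ovaries of a group shared a litter was not stated, so p-values measure the spread between ovaries. The number of arrays limits the precision.

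Named were Foxl2 and Runx1, the 15 largest called rises and falls without overlap between the groups, called members of the gene lists (or the 3 with the smallest p), the genes the study named, 8 genes by the p of the difference between the effects, and the 5 nearest called neighbours of Foxl2. Predicted genes were counted only. List members at background in both groups, and genes not analysed here, are not described. The comparison and the lists were chosen with earlier results of these data known. Gene order was taken from RefSeq, where 18031 of the genes were found.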

Additional observations from a re-analysis of the deposited data

Results flagged for a closer look

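Among 131 named genes in the Runx1 KO and the DKO ovaries, 9 of 262 sets of 4 arrays held an ovary that stood apart from the other 3 by Dixon's criterion, or 3.44%, where chance alone flags about 1 in 20. In DKO these were the lowest values of Cd83 (387, replicate 2), Egr1 (1639, replicate 3) and Gja1 (4589, replicate 3) and the highest value of Pax8 (869, replicate 3). In Runx1 KO they were the lowest values of Cst9 (143, replicate 2), Hs3st1 (243, replicate 4) and Sdc2 (3324, replicate 4) and the highest values of Nudt16 (947, replicate 3) and Wif1 (24, replicate 2). Replicate 3 of DKO held 3 of the 9 and no other ovary more than 2.

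The effect of Foxl2 loss was called different between the Runx1-intact and the Runx1-deleted ovary for 2 genes in the test of the difference itself. These were Col8a1, by 3.21 on the log2 scale, and Slc8a3, by -3.01. Leaving out 1 array ended the call in 7 of 16 fits for Col8a1 and in 10 of 16 for Slc8a3. Only the Runx1-deleted groups carried the Cre transgene, so Runx1 loss and the transgene cannot be told apart in that test.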

How the results depend on the processing

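The 180 genes called between DKO and Runx1 KO became 104 when only those groups were fitted and 752 (406 higher, 346 lower) under the methods' own rule of an unadjusted p with a 1.5-fold minimum. Leaving out 1 array gave 111 to 205, with 113, 116 and 111 without Runx1 KO replicates 1 and 3 and DKO replicate 3, and leaving out Runx1 KO replicate 4 together with DKO replicate 1, an alternative chosen after seeing the data, gave 111. All 180 genes kept their sign and 84 kept their call in each of these 16 fits without 1 array. With replicate number as a block 130 were called, 122 of them among the 180. Runx1 KO and DKO ovaries of the same number did not deviate together over all genes (correlations of -0.02, 0.05, -0.04 and 0.08). These correlations cannot show whether the numbers stand for a shared litter or processing day, which was not stated. The 276 genes called between Foxl2 KO and Control became 175, 914 and 183 to 294 in the same order, with 183 without Control replicate 3, and 220 with the block. The 2 genes called for the difference between the effects became 0 with an offset of 1, a floor of 16, genes above the median level, the block, the oocyte score as a covariate, the analysis of variance spread with adjusted p, or the pair of arrays left out, 572 under the methods' rule, and 0 to 4 without 1 array. Of 68 called genes named in the text, 31 kept their call under every alternative tried for them, and Hamp2 reversed without shared probe sets (-0.19). The cause of these changes was not tested. Equal array medians moved the median of all genes from 0.02 to -0.0036.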

Other observations

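Several called genes outside the lists belonged to common groups. They were picked out after their values were seen, and no test of the groups was made. Besides Agt, 3 genes of peptide hormone signalling were called. Agtr1a, a receptor of angiotensin II, read 174, 140, 206 and 210 in Runx1 KO and 460, 329, 393 and 391 in DKO (1.05 ± 0.17, adjusted p = 0.0059). Anpep, an aminopeptidase that trims such peptides, read 428 to 650 against 1080 to 1407 (1.25 ± 0.20, adjusted p = 0.0055). Mme, the endopeptidase neprilysin, fell from 586 to 877 down to 260 to 473 (-0.93 ± 0.18, adjusted p = 0.021), and lost its call without Runx1 KO replicate 1 or DKO replicate 3 or 4 (adjusted p up to 0.074).

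Genes of sulfation and cell-surface proteoglycans that were called besides Chst9, picked as above, were lower. Sdc2, a syndecan, read 4312, 4267, 4435 and 3324 against 2328, 2119, 2184 and 2161 (-0.88 ± 0.13, adjusted p = 0.0024). Ust, a uronyl sulfotransferase, read 195 to 289 against 92 to 151 (-0.96 ± 0.16, adjusted p = 0.008), but that probe set is shared, and without shared probe sets the difference was -0.11 (adjusted p = 0.902). Sdc4, Hs3st1 and Chst8 were also called lower (adjusted p = 0.021, 0.037 and 0.036), and lost their calls in 6, 7 and 8 of the 16 fits that left out 1 array (up to 0.0727, 0.121 and 0.116).

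Receptors and ligands of cell guidance were called in both directions. Plxnc1, a semaphorin receptor, read 3012, 2338, 2356 and 1969 against 712, 921, 766 and 861 (-1.54 ± 0.17, adjusted p = 0.00034). Ntn4, a netrin, fell from 613 to 1148 down to 236 to 312 (-1.53 ± 0.24, adjusted p = 0.0046), and Tenm4, a teneurin, from 1465 to 2405 down to 659 to 1050 (-1.18 ± 0.18, adjusted p = 0.004). Flrt3 and Sema3c were lower as well and Celsr2, an atypical cadherin, higher (adjusted p = 0.024, 0.048 and 0.044), but these 3 lost their calls in 4, 13 and 12 of the 16 fits (up to 0.0845, 0.163 and 0.148). Angptl1 and Angptl6, angiopoietin-like secreted proteins, fell by 1.60 and 1.66 on the log2 scale (adjusted p = 0.001 and 0.0055), with no overlap between the groups. The other Angptl1 probe sets differed by -1.33 and 0.34, so they did not share a sign.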
